A study of Mus musculus with 6 samples.

Results

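The 4 ID genes (Id1, Id2, Id3 and Id4) and 6 genes of bone morphogenetic protein (BMP) signaling (Bmp4, Bmp6, Bmpr2, Smad6, Smad7 and Smad9) were followed in mouse hearts after heat stroke (HS). These 10 genes, of 57180 in the deposited data, were chosen by name with the difference between these same HS and sham hearts already known, so that difference is given below as a description, and the counts of calls printed for them, beside the share over all genes, are no test of them. All 10 passed the filter on low counts that 14717 genes passed. There were 3 HS hearts and 3 sham hearts, all from males of the inbred mouse strain C57BL/6N at 6 to 8 weeks of age. For HS, mice were heated at 40 °C and 60 to 65% humidity up to a rectal temperature of 42 °C, and then went back to the environment of the sham mice. The sham mice stayed at 22 to 25 °C and the same humidity. Mice of both groups had no food or water during this time, so fasting is shared by the groups. The labels name no drug and no altered gene. Each heart gave 1 poly(A)-selected RNA library. How long after 42 °C the hearts were taken is stated neither in the labels nor in the methods. The labels name heart as the tissue, whereas the text on RNA extraction speaks of cell lines. The muscle markers Myl2 and Myh6 were abundant in every library. Myl2 was at 4489, 5724 and 4751 CPM (counts-per-million) in HS hearts, against 5948, 6246 and 6880 CPM in sham hearts, and Myh6 at 13810 to 19244 CPM in HS hearts, against 14141 to 14591 CPM in sham hearts.

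BMPs are secreted ligands of the transforming growth factor beta superfamily. They bind pairs of type I and type II receptors, such as BMPR2, which phosphorylate the receptor SMADs SMAD1, SMAD5 and SMAD9. With SMAD4 these enter the nucleus and bind target genes, of which the ID genes and the inhibitory SMADs SMAD6 and SMAD7 are the best known. ID proteins hold a helix-loop-helix but no DNA-binding region, and they pair with basic helix-loop-helix (bHLH) proteins such as the E proteins and keep them off DNA. In the heart the pathway is best known in endothelial cells, where ID1 and ID3 are read as its output, and in the forming valves and chambers.

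Total counts per heart were 22098516 to 25855914, and 3 counts, the limit that a count of 0 allows, corresponded to 0.108 to 0.152 CPM. Levels are given as CPM on the TMM scale (trimmed mean of M values), and such limits, like the intervals below, cover only the error of counting. HS hearts 1 and 3 stood apart by their atrial muscle markers. The 7 markers summed to 4157, 477 and 3242 CPM in HS hearts 1 to 3, against 334 to 399 CPM in sham hearts, and Myl7, an atrial light chain, was at 653, 0.158 and 477 CPM in HS hearts, against 0.797, 0 and 0.0859 CPM in sham hearts. Sln, the atrial sarcolipin, was at 113, 0 and 80.4 CPM in HS hearts, against 0 to 0.0399 CPM in sham hearts. The 5 adipocyte markers summed to 44.9, 0.908 and 8.54 CPM in HS hearts, against 0.21 to 2.39 CPM in sham hearts. The sources used here do not describe how the hearts were dissected, so for genes that are high in HS hearts 1 and 3, among them Id4, Bmp4 and Sost, the tissue taken and a response to HS cannot be told apart. HS heart 3 was also the farthest from the other hearts, with a mean absolute log2 difference of 0.47 to 0.57, against 0.23 to 0.36 among the other 5. Mitochondrial ribosomal RNA took 2.75%, 3.16% and 5.55% of counts in HS hearts, against 1.67 to 1.69% in sham hearts. The part of these differences in the results below was not tested. Log2 fold changes without HS hearts 1 and 3 are given for the members only, and not for the other pathway genes or the markers. The tissue was measured as bulk RNA, in which fewer cells of a type and less RNA per cell cannot be told apart. The labels call the libraries replicate biosamples but describe no litter, day or batch, so p-values measure only the spread between these hearts, which may be partly technical.

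The region before the start of a gene is where SMADs and other factors can bind, and the windows of Smad9 and Id4 are shown because these members had the highest HS levels relative to sham. Both are the 250 bases before the RefSeq start, printed 5′ to 3′ on the gene's strand (build GRCm38.p6, sequences from RefSeq). Smad9 is on the plus strand at chr3:54755332-54755581 and Id4 on the plus strand at chr13:48260866-48261115. Capitals mark GGCGCC, a GC-rich sequence that BMP SMADs are known to bind.
Smad9: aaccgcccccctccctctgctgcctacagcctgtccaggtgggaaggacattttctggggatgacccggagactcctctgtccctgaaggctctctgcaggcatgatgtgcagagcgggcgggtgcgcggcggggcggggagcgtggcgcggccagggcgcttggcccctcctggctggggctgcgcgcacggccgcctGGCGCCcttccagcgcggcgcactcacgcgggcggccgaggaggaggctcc
Id4: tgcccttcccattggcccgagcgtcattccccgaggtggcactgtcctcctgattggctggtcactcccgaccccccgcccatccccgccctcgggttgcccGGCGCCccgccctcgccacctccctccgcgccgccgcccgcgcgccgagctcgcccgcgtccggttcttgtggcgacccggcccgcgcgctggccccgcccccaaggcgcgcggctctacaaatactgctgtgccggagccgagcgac
GGCGCC, which reads the same on both strands, lay 51 to 46 bases before the start in Smad9 and 148 to 143 bases before it in Id4. Windows were found for 8 of the 10 members, and the others were Id1 and Smad7. Id2 and Bmpr2 held GGCGCC as well, so 4 of 8 windows had it, against 9.54% of 27025 windows of the same length. The 8 windows were 62.8 to 75.6% G or C. GGCGCC holds only G and C, and windows of like G and C content were not compared, so the shares of GGCGCC are no measure of enrichment. The shorter SMAD binding element CAGAC, sought on both strands, was in the windows of Id3 and Bmp6 and in 42.1% of all windows, and no GGCGCC overlapped a CAGAC. The core of the heat shock element, GAANNTTC, which reads the same on both strands, was in none of the 8 windows and in 6.78% of all. These are matches of letters in a window, and no binding was measured.

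Id1 was the member that differed most downward in HS hearts, and Smad9 the one whose HS hearts lay closest together above the sham hearts. These were the only members whose groups did not overlap: 1 of 10 was above (Smad9), where 11.0% of all tested genes had every HS heart above every sham heart, and 1 of 10 was below (Id1), where 10.9% had every HS heart below. By the quasi-likelihood test of edgeR, with Benjamini-Hochberg adjustment over 14717 genes, 9 genes (0.0612%) and none of the members were called. At an unadjusted p under 0.05 the members counted 2 higher (Id4 and Smad9), where 8.83% of all genes were higher, and 1 lower (Id1), where 4.76% were lower. DESeq2 called 352 genes (2.39%), among them 2 members, Id1 and Smad9. The members were selected on this contrast, so these counts are given as a description only.

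**Figure D1:**
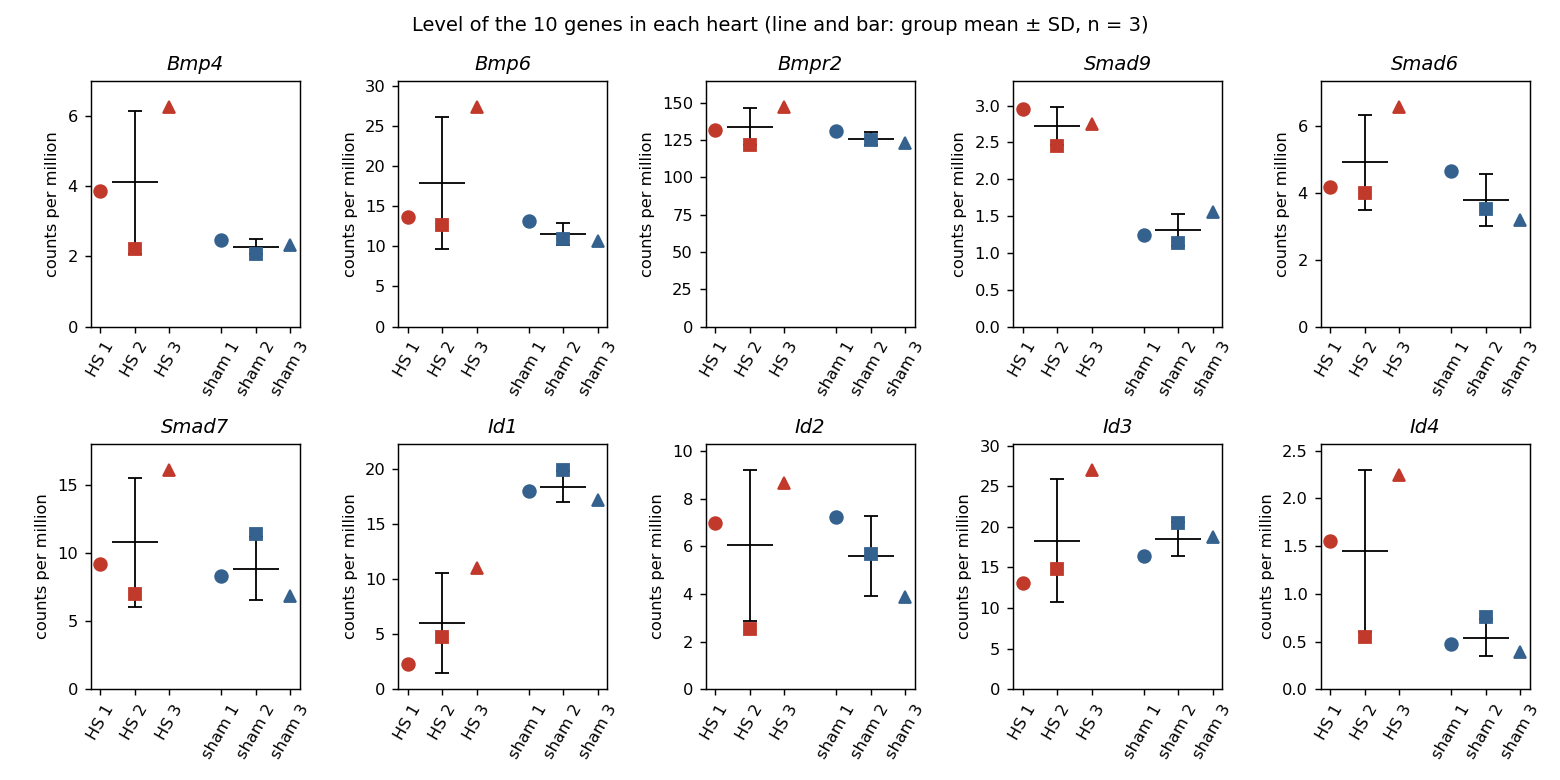
Level of each of the 10 genes in counts-per-million (vertical axis, from 0) in HS hearts 1 to 3 (red, left) and sham hearts 1 to 3 (blue, right), with the group mean and SD as a black line and bar (n = 3). Id1 lies below and Smad9 above the sham hearts in all 3 HS hearts, and HS heart 3 is the highest HS heart for 9 of the 10 genes.

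Among the ligands, Bmp4 and Bmp6 were highest in HS heart 3. Bmp4, a ligand of heart and vessel development, was at 3.86, 2.21 and 6.25 CPM in HS hearts, against 2.47, 2.06 and 2.32 CPM in sham hearts. HS heart 2 lay within the range of the sham hearts and HS hearts 1 and 3 above it, so the groups overlapped. The log2 fold change was 0.84 (SE 0.36), and it was -0.05 with HS hearts 1 and 3 left out. Bmp6, made by endothelial cells and best known for raising hepcidin in the liver, was at 13.6, 12.7 and 27.3 CPM in HS hearts, against 13.1, 10.9 and 10.6 CPM in sham hearts. Only HS hearts 1 and 3 exceeded every sham heart, and HS heart 3 had 2.36 times the sham mean while the other two had 1.18 and 1.10 times. The log2 fold change was 0.62 (SE 0.30), and 0.14 with HS hearts 1 and 3 left out. The 3′ end of Bmp6 overlaps Txndc5 on the other strand, which had 489 to 773 counts in HS hearts, against 561 to 618 counts in sham hearts. The libraries keep the strand, but no source used here says whether the counting did, so part of the Bmp6 counts may belong to Txndc5.

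Bmpr2, the type II receptor whose loss of function is known from pulmonary arterial hypertension, was the most abundant member and the one that varied least. It was at 132, 122 and 147 CPM in HS hearts, against 131, 125 and 123 CPM in sham hearts. The groups overlapped, and the log2 fold change was 0.08 (SE 0.09), and -0.05 with HS hearts 1 and 3 left out. Relative to this receptor, Bmp6 had 0.103, 0.104 and 0.186 counts per Bmpr2 count in HS hearts, against 0.10, 0.0872 and 0.0866 in sham hearts. Each HS heart was thus above each sham heart in this ratio, which needs no scaling between libraries. HS hearts 1 and 2, however, differed little from sham heart 1, so the gap rests mostly on HS heart 3. The ratio uses the same Bmp6 counts as above, in which the groups overlapped, so it is no separate evidence.

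Smad9 encodes SMAD9 (also SMAD8), the receptor SMAD of BMP signaling that is itself a known BMP target and acts more weakly than SMAD1 and SMAD5. Its level was low in every heart, at 2.96, 2.45 and 2.75 CPM in HS hearts, against 1.24, 1.13 and 1.55 CPM in sham hearts. These were 82, 62 and 54 counts in HS hearts, against 31, 27 and 36 counts in sham hearts. All 3 HS hearts were above all 3 sham hearts, at 2.27, 1.88 and 2.10 times the sham mean, and HS heart 3 was not the highest. The log2 fold change was 1.06 (SE 0.23) and stayed between 0.91 and 1.19 under every alternative run, of which 0.91 was without HS hearts 1 and 3. HS heart 2, at 2.45 CPM, had atrial markers that summed to 477 CPM, against 334 to 399 CPM in sham hearts. Of that sum Clu made 337 CPM and Nppa 132 CPM, against 241 to 286 CPM and 85.9 to 101 CPM in sham hearts. Myl7, Sln, Myl4 and Dkk3 lay within the sham range there, and Stard10 was just above it, at 5.84 CPM, against 5.54 to 5.79 CPM. Per count of Smad5, its close relative, Smad9 had 0.0619, 0.0506 and 0.0512 counts in HS hearts, against 0.0269, 0.0228 and 0.0338 in sham hearts. The ratio of Smad9 to Smad1 overlapped between the groups, at 0.288, 0.217 and 0.128 in HS hearts, against 0.141, 0.139 and 0.183 in sham hearts, and Smad1 was itself highest in HS heart 3.

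The inhibitory SMADs overlapped between the groups. Smad6, which blocks BMP receptors and SMAD1 in particular, was at 4.19, 3.99 and 6.56 CPM in HS hearts, against 4.66, 3.53 and 3.18 CPM in sham hearts. Smad7, which blocks both BMP and transforming growth factor beta receptors, was at 9.17, 7.03 and 16.1 CPM in HS hearts, against 8.29, 11.4 and 6.87 CPM in sham hearts. For both, HS heart 3 was above every sham heart and the other HS hearts lay within the sham range. The log2 fold changes were 0.37 (SE 0.25) for Smad6 and 0.27 (SE 0.33) for Smad7, and without HS hearts 1 and 3 they were 0.07 and -0.33. Smad7 stood at 1.76 to 2.46 counts per Smad6 count in HS hearts, against 1.78 to 3.24 in sham hearts.

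Id1, a direct target of BMP signaling in endothelial cells, was lower in every HS heart. It was at 2.27, 4.78 and 11.0 CPM in HS hearts, against 18.0, 19.9 and 17.2 CPM in sham hearts. These values rest on 63, 121 and 217 counts in HS hearts, against 452, 474 and 401 counts in sham hearts. The sham hearts lay within 1.16 times of each other, while the HS hearts spanned 4.85 times and stood at 0.124, 0.260 and 0.600 times the sham mean. The group means were 6.03 ± 4.51 CPM in HS hearts and 18.4 ± 1.37 CPM in sham hearts (SD, n = 3 each). The log2 fold change was -1.63 (SE 0.50), and it was -1.94 without HS hearts 1 and 3 and between -2.39 and -1.24 over all alternatives. HS heart 3, which was the highest HS heart for 8 of the other 9 members, had the Id1 level nearest to the sham hearts.

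Ratios within a heart, which need no scaling between libraries, put Id1 lower in every HS heart than in every sham heart. They use the same Id1 counts as above, so they are no separate evidence. In HS heart 3 each gene that Id1 was divided by, except Cdh5, was itself above every sham heart. Per count of Id3, its neighbour in function, Id1 had 0.174, 0.324 and 0.409 counts in HS hearts, against 1.10, 0.971 and 0.920 in sham hearts. Per count of Cdh5, the endothelial cadherin, it had 0.0208, 0.0391 and 0.0922 in HS hearts, against 0.169, 0.166 and 0.151 in sham hearts. The groups were apart in both, and likewise in the ratios of Id1 to Pecam1, another endothelial adhesion gene, to Eng, the BMP co-receptor endoglin, to Acvrl1, the endothelial BMP receptor ALK1, and to Id2. Per count of Acvrl1, Id1 had 0.164, 0.262 and 0.342 in HS hearts, against 1.20, 1.33 and 1.27 in sham hearts. The divisors Cdh5, Pecam1, Eng and Acvrl1 had log2 fold changes of 0.04, 0.24, 0.09 and 0.56. Id1 was not divided by Egfl7 or Cldn5, endothelial markers that were lower in HS hearts. The ratio of Id3 to Cdh5, by contrast, overlapped, at 0.120, 0.121 and 0.226 in HS hearts, against 0.154, 0.171 and 0.164 in sham hearts.

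**Figure D2:**
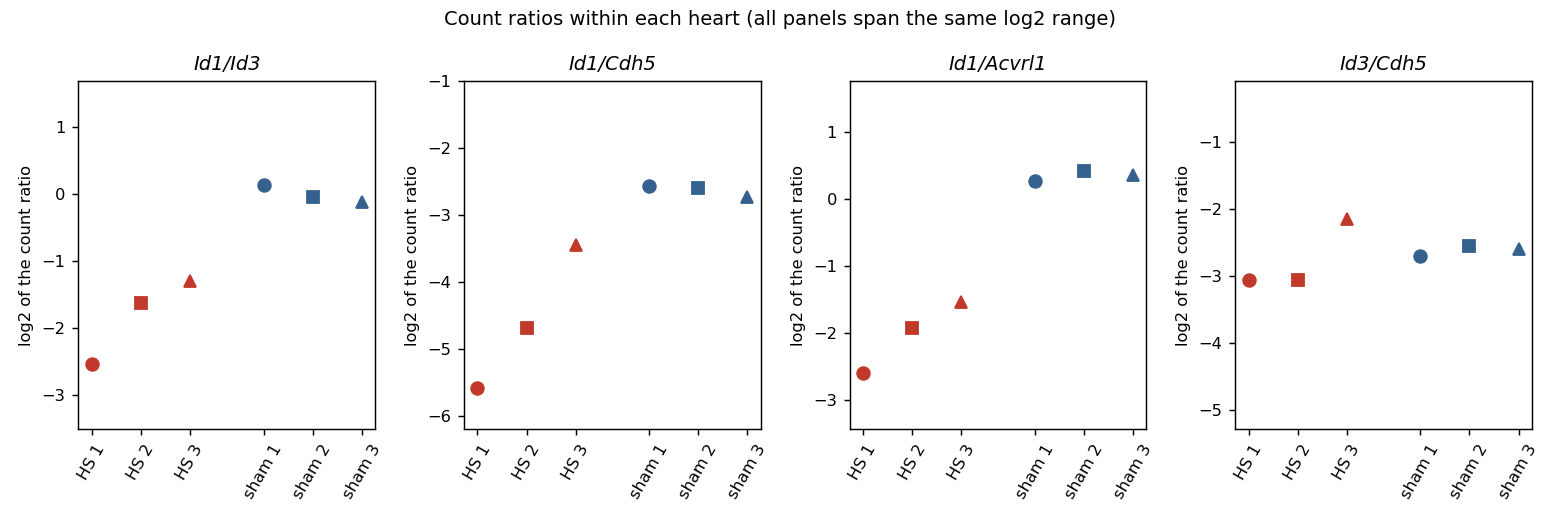
Log2 of the count ratio within each heart (vertical axis) for Id1 to Id3, Id1 to Cdh5, Id1 to Acvrl1 and Id3 to Cdh5, in HS hearts 1 to 3 (red, left) and sham hearts 1 to 3 (blue, right), 1 point per heart. The 3 ratios with Id1 are lower in all HS hearts than in all sham hearts, with HS heart 1 lowest, while the ratio of Id3 to Cdh5 overlaps.

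Endothelial cells, in which Id1 is known to be expressed, were measured through 14 markers. None of the 14 was called by edgeR or by DESeq2. At an unadjusted p under 0.05 edgeR counted 1 higher (Vwf, with log2 fold change 1.11), where 8.83% of all tested genes were higher. It counted 2 lower (Egfl7 and Cldn5, at -0.47 and -0.50), where 4.76% were lower. These 2 had every HS heart below every sham heart, as had 10.9% of all tested genes. Egfl7 was at 24.9, 28.7 and 30.2 CPM in HS hearts, against 39.2, 42.7 and 34.0 CPM in sham hearts. Cldn5 was at 4.80, 6.08 and 6.05 CPM in HS hearts, against 8.45, 8.23 and 7.17 CPM in sham hearts. The other markers overlapped between the groups. The median log2 fold change of the markers was 0.04, against 0.01 over all tested genes. They summed to 956, 987 and 1546 CPM in HS hearts, against 1120, 1065 and 1006 CPM in sham hearts, so that HS hearts 1 and 2 were just below the sham range and HS heart 3 above it. Pecam1 was at 114, 91.1 and 181 CPM in HS hearts, against 117, 108 and 101 CPM in sham hearts, and Cdh5 was at 109, 122 and 120 CPM in HS hearts, against 106, 120 and 114 CPM in sham hearts. No endothelial marker was at 0. The part of these markers in the Id1 difference was not tested.

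Id3, the second ID gene of endothelial cells, was at 13.1, 14.8 and 27.0 CPM in HS hearts, against 16.4, 20.5 and 18.7 CPM in sham hearts. HS hearts 1 and 2 were below every sham heart and HS heart 3 above every sham heart. The log2 fold change was -0.02 (SE 0.27), and -0.33 with HS hearts 1 and 3 left out. Id2, which is found in many cell types of the heart, was at 6.96, 2.53 and 8.64 CPM in HS hearts, against 7.22, 5.67 and 3.86 CPM in sham hearts. HS heart 2 was the lowest of all 6 hearts and HS heart 3 the highest, so the log2 fold change of 0.11 (SE 0.44) had no single direction behind it, and it was -1.14 with HS hearts 1 and 3 left out. Id4, the least abundant member, known from the nervous system, was at 1.55, 0.553 and 2.24 CPM in HS hearts, against 0.478, 0.756 and 0.386 CPM in sham hearts. HS hearts 1 and 3 were above every sham heart and HS heart 2 lay within the sham range. The log2 fold change was 1.40 (SE 0.54), and with HS hearts 1 and 3 left out it was 0.03. These levels rest on 43, 14 and 44 counts in HS hearts, against 12, 18 and 9 counts in sham hearts. Per count of Id2, Id4 had 0.223, 0.219 and 0.259 in HS hearts, against 0.0663, 0.133 and 0.10 in sham hearts, so the groups were apart in this ratio. In HS heart 2, however, Id4 was at 1.02 times its sham mean and Id2 at 0.453 times its own.

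Every member but Smad9 thus spanned a wider fold range over the HS hearts than over the sham hearts. HS hearts also lay farther apart over all tested genes, at mean absolute log2 differences of 0.31 to 0.52, against 0.23 to 0.27 among sham hearts. For Smad9 the highest heart was 1.21 times the lowest in HS hearts, against 1.36 times in sham hearts. HS heart 3 was the highest HS heart for 9 of 10 members and HS heart 1 for Smad9, while HS heart 2 was the lowest for 8 and HS heart 1 for Id1 and Id3. How many of all tested genes were highest in HS heart 3 was not counted. The median member differed from its sham mean by 0.20, -0.04 and 0.84 on the log2 scale in HS hearts 1, 2 and 3. For the median tested gene these differences were 0.01, 0 and -0.01. Over all 3 HS hearts the median log2 fold change of the members was 0.32, with 8 above 0 and 2 below, against 0.01 over all tested genes. Without HS hearts 1 and 3 it was -0.05, and this rests on HS heart 2 alone. Marker sums of 3 other cell types were also highest in HS heart 3. Single markers differed, with Col3a1, Acta2 and Cspg4 highest in HS heart 1 and Kcnj8 in HS heart 2. The mesothelial sum, at 20.8, 11.1 and 5.34 CPM in HS hearts 1 to 3, was lowest in HS heart 3. So was the ventricular sum, at 38863, 42613 and 33309 CPM. The 8 fibroblast markers summed to 1977, 1333 and 3480 CPM in HS hearts, against 1048 to 1290 CPM in sham hearts. The 8 smooth muscle and pericyte markers summed to 1046, 870 and 1305 CPM in HS hearts, against 749 to 831 CPM in sham hearts, and the 5 erythroid markers to 154, 616 and 1548 CPM in HS hearts, against 137 to 316 CPM in sham hearts. EdgeR called none of these, with 5 fibroblast and 5 smooth muscle markers higher, 1 smooth muscle marker lower and 0 erythroid markers either way at an unadjusted p under 0.05, while DESeq2 called 4 fibroblast and 2 smooth muscle markers higher and 0 erythroid markers. Their part in the level of the members in HS heart 3 was not tested.

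**Figure D3:**
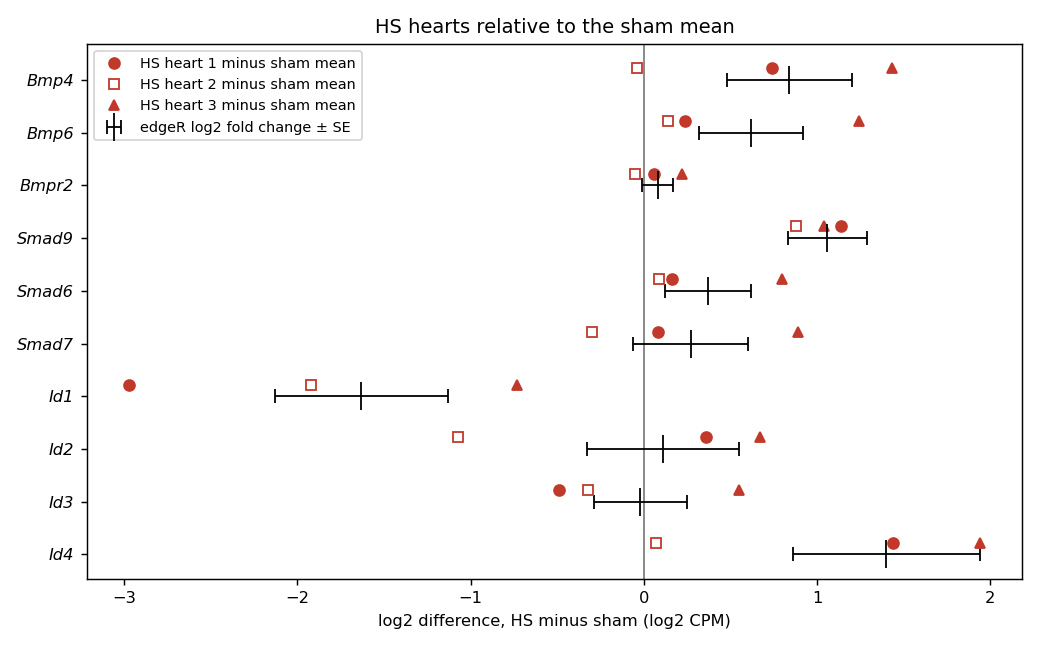
Difference in log2 CPM of HS heart 1 (filled circle), HS heart 2 (open square) and HS heart 3 (triangle) from the mean of the 3 sham hearts (horizontal axis), with the edgeR log2 fold change and its SE in black, for each of the 10 genes. The 3 HS hearts of Smad9 lie between 0.88 and 1.14, those of Id1 between -2.97 and -0.73, and those of Id2 lie on both sides of 0.

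Divided by transcript length, so that genes can be compared, the order of the levels differed between the groups. In HS hearts Id3 came first with 15.8 ± 6.04 CPM per kilobase, followed by Bmpr2 with 10.4 ± 0.970, Id1 with 6.35 ± 4.83, Bmp6 with 4.97 ± 2.28 and Id2 with 4.77 ± 2.49 (SD, n = 3). In sham hearts Id1 came first with 19.2 ± 1.48 CPM per kilobase, followed by Id3 with 15.2 ± 1.78, Bmpr2 with 9.79 ± 0.332, Id2 with 4.41 ± 1.33 and Bmp6 with 3.21 ± 0.381 (SD, n = 3). In sham hearts the ranges of Id1, Id3 and Bmpr2 did not overlap, whereas those of Id2 and Bmp6 did. In HS hearts the ranges of Id3 and Bmpr2 were just apart, while Bmpr2 and Id1, Id1 and Bmp6, and Bmp6 and Id2 overlapped. Id1 was thus the most abundant member per length in all 3 sham hearts and in no HS heart. The lower end of the order was Smad7, Bmp4, Smad6, Smad9 and Id4 in HS hearts, at 2.52, 2.03, 1.65, 0.507 and 0.376 CPM per kilobase, where Smad9 and Id4 overlapped and Smad6 and Smad9 did not. In sham hearts it was Smad7, Smad6, Bmp4, Smad9 and Id4, at 2.14, 1.28, 1.21, 0.243 and 0.140 CPM per kilobase, and Smad6 and Bmp4 overlapped there.

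The split of a gene's counts over its transcripts is a measure that the choice of members did not use. Of the members, 2 had a second transcript with a mean of at least 20 counts, and in both that transcript holds intron sequence. Id1 lies at chr2:152736251-152737410 on the plus strand (mm10), and Id1-202 spans that whole stretch as 1 exon, where Id1-201 has 2 exons. Id1-202 took 28.1%, 4.75% and 5.07% of the Id1 counts in HS hearts, against 15.9%, 10.2% and 10.6% in sham hearts. The 95% Wilson interval of HS heart 1 was 18.9 to 40.7%, from 63 counts. Id3-203 is annotated as a retained intron, at chr4:136143864-136144716 on the plus strand. It took 18.5%, 16.3% and 10.2% of the Id3 counts in HS hearts, against 4.81%, 6.11% and 9.90% in sham hearts. Each HS heart was above each sham heart, but HS heart 3 and sham heart 3 were within counting error, with intervals of 7.88 to 13.0% and 7.40 to 13.0%. The share on the main transcript, Id3-201, was 85.0 ± 4.33% in HS hearts and 93.1 ± 2.65% in sham hearts (SD, n = 3 each). The difference of -8.08 percentage points had p = 0.1 in a two-sided exact permutation test, the smallest p that 3 against 3 hearts allow, and an adjusted p of 0.2 over the 2 genes. For Id1-201 the shares were 87.4 ± 13.4% in HS hearts and 87.8 ± 3.18% in sham hearts (SD, n = 3 each), with a difference of -0.415 percentage points and p = 1.0 in the same exact permutation test. Its difference depended on single hearts, at 7.31 percentage points without HS heart 1 and -4.36 without HS heart 2, while that of Id3-201 ran from -10.5 to -6.32 without single hearts. The counts are estimates that split reads shared by overlapping transcripts, so these shares depend on how the authors' program divided them.

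**Figure D4:**
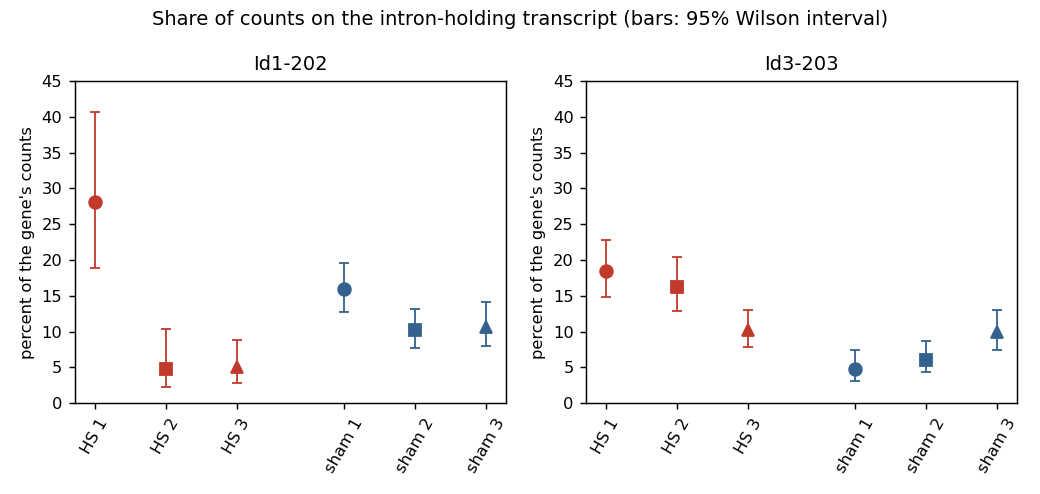
Percent of the gene's counts (vertical axis) on Id1-202 and on Id3-203, the transcripts that hold intron sequence, in HS hearts 1 to 3 (red, left) and sham hearts 1 to 3 (blue, right), with 95% Wilson intervals for counting error. Id3-203 takes 10.2 to 18.5% in HS hearts and 4.81 to 9.90% in sham hearts, while Id1-202 overlaps.

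The genes whose log2 CPM followed Id1 most closely over the 6 hearts were Ogfr, Arpc5l, Prdm9, Atp5mg and Rab5if, with Pearson r of 0.983 to 0.993 among 10790 genes compared. In all, 34 genes reached r of 0.95. With 6 hearts, 3 of them low in Id1, such values are a description of these libraries, and all points share the same depth and scaling. The changes of the 5 genes were far smaller than that of Id1: Ogfr, the opioid growth factor receptor, was at 18.5, 19.4 and 20.8 CPM in HS hearts, against 21.8, 21.5 and 21.6 CPM in sham hearts, and the 5 log2 fold changes ran from -0.44 to -0.15. No member was among them. Id3 had r = 0.63 with Id1 and Smad9 had r = -0.83 over the same 6 hearts. These values hold the difference between the groups, which for Id1 and Smad9 did not overlap and went in opposite directions. Over the 3 HS hearts alone, r with Id1 was 0.95 for Id3 and -0.36 for Smad9, again a description only.

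Of the other genes of the pathway, a list of 76 was examined, of which 56 passed the filter on low counts. The list is broad, and also holds SMADs other than the BMP receptor SMADs and bHLH proteins related to the ID proteins. None of the 56 was called by edgeR at an adjusted p under 0.05, and none by DESeq2. At an unadjusted p under 0.05 edgeR counted 13 higher and 1 lower, where 8.83% and 4.76% of all tested genes were. Every HS heart was above every sham heart for 12 and below for 3, where 11.0% and 10.9% of all tested genes were. Their median log2 fold change was 0.27, with 43 above 0 and 13 below. In HS hearts 1, 2 and 3 the median gene of the list lay 0.10, 0.01 and 0.54 above its sham mean on the log2 scale, so here too HS heart 3 was the highest. The medians over all tested genes were 0.01, 0 and -0.01.

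Among the ligands, 4 of 11 were tested. Bmp2, a ligand close to Bmp4, was at 1.52, 1.11 and 3.51 CPM in HS hearts, against 0.797, 0.756 and 0.730 CPM in sham hearts, with every HS heart above every sham heart (log2 fold change 1.40, SE 0.46, edgeR adjusted p = 0.297). Bmp5 and Gdf6, further ligands of the family, had log2 fold changes of 0.42 and -0.55 and overlapping groups. Among 10 tested receptors and co-receptors, Acvr1, the type I receptor ALK2, had the smallest p of the whole list. It was at 17.0, 14.2 and 22.0 CPM in HS hearts, against 11.9, 11.7 and 10.5 CPM in sham hearts (log2 fold change 0.64, SE 0.17, edgeR adjusted p = 0.264). For Acvrl1 the log2 fold change was 0.56 (adjusted p = 0.443 by edgeR), and for Bmpr1a, the receptor ALK3, it was -0.22 (adjusted p = 0.504). The 5 SMAD transducers all had log2 fold changes above 0, from 0.08 to 0.75, and 3 of them (Smad1, Smad2 and Smad4) had every HS heart above every sham heart, as had 11.0% of all tested genes. Of these 3, Smad1 encodes a receptor SMAD of BMP signaling and Smad4 its partner, as given above, whereas Smad2 encodes neither. Smad1, the main BMP SMAD, was at 10.3, 11.3 and 21.4 CPM in HS hearts, against 8.77, 8.14 and 8.46 CPM in sham hearts, with an edgeR adjusted p of 0.322.

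The antagonists had the widest spread. Sost, which encodes sclerostin, an inhibitor best known in bone, was at 14.2, 0.197 and 10.6 CPM in HS hearts, against 0.718, 0.546 and 0.215 CPM in sham hearts. Chrdl1, a chordin-like BMP antagonist, was at 2.09, 0.711 and 6.46 CPM in HS hearts, against 0.957, 0.672 and 0.386 CPM in sham hearts. For both, HS hearts 1 and 3 were above every sham heart, as with the atrial markers, and HS heart 2 was not, and the adjusted p was 0.303 and 0.330 by edgeR. Bambi, a decoy receptor and BMP target, had every HS heart above every sham heart, at 7.29, 9.64 and 9.56 CPM in HS hearts, against 7.18, 6.13 and 5.45 CPM in sham hearts (adjusted p = 0.306 by edgeR). Of 9 tested SMAD regulators, Smurf1, a ubiquitin ligase for BMP SMADs, had the smallest p (log2 fold change 0.28, adjusted p = 0.316), and the phosphatases Ctdspl and Ctdsp2 had log2 fold changes of 0.65 and 0.24 with overlapping groups.

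Other targets of BMP signaling differed in both directions, with 5 of 9 tested above 0 and 4 below on the log2 scale. Tmem100, a known target of ALK1 signaling in endothelial cells, was the only gene of the list that was lower at an unadjusted p under 0.05, at 10.5, 7.70 and 10.5 CPM in HS hearts, against 12.4, 14.4 and 11.2 CPM in sham hearts (log2 fold change -0.40, SE 0.17, edgeR adjusted p = 0.352). Gata2, a blood and endothelial transcription factor, was at 9.31, 9.67 and 17.4 CPM in HS hearts, against 5.90, 8.31 and 6.57 CPM in sham hearts (adjusted p = 0.303 by edgeR). Hey2 had a log2 fold change of 0.51 and overlapping groups. Among the bHLH proteins with which ID proteins pair, or which compete for the same partners, 4 of 8 tested had every HS heart above every sham heart, as had 11.0% of all tested genes. Tal1, a blood and endothelial factor, was at 5.20, 6.00 and 11.2 CPM in HS hearts, against 4.07, 4.07 and 3.74 CPM in sham hearts (log2 fold change 0.91, edgeR adjusted p = 0.297). Tcf12, an E protein, and Twist1, a mesenchymal factor, had log2 fold changes of 0.38 and 1.27 and adjusted p of 0.301 and 0.360.

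**Figure D5:**
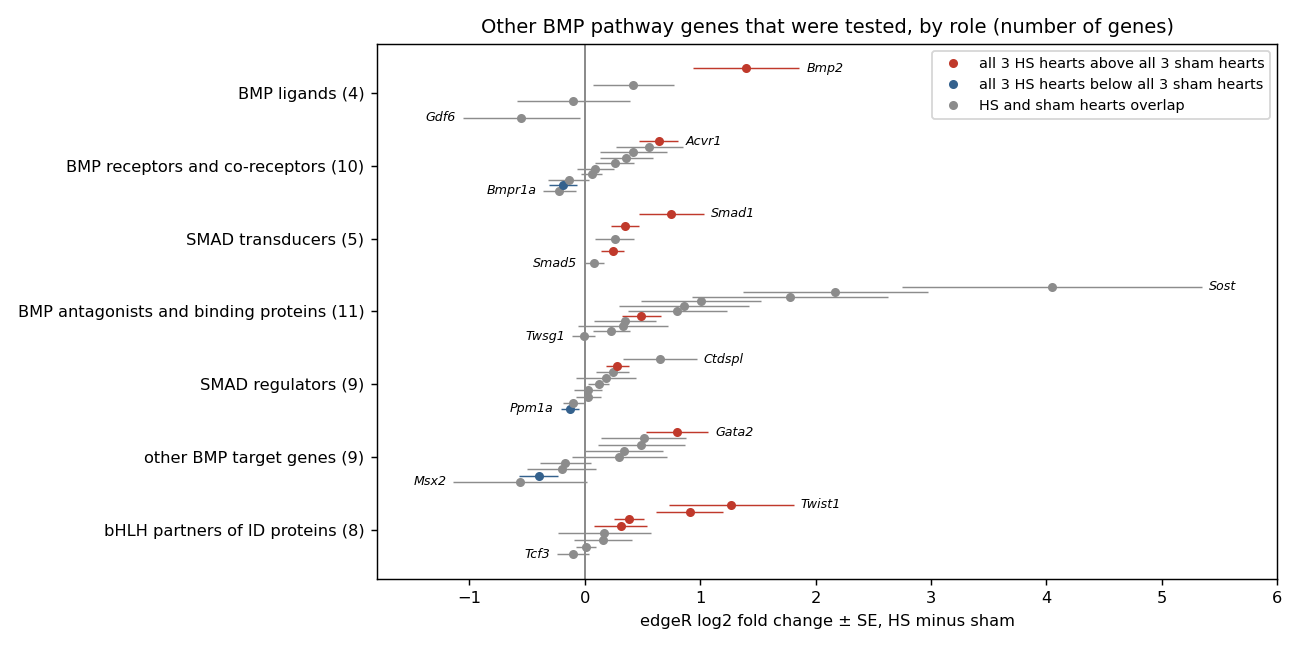
EdgeR log2 fold change with SE, HS minus sham (horizontal axis), of the 56 tested genes of the pathway outside the 10, grouped by role, with the number of genes in parentheses and the highest and lowest gene of each group named. Red marks the 12 genes with all HS hearts above all sham hearts, blue the 3 with all below, and grey the overlapping rest, and none passed the adjusted threshold.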

How the data were processed

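RNA of 3 HS and 3 sham hearts was sequenced as poly(A)-selected libraries. Per the submitters' processing notes and the study's methods, reads were trimmed by fastp and mapped to mm10 by Hisat2. The authors deposited estimated counts per transcript, 1 column per heart, without normalization. Quantifier, annotation, use of strand and tool versions: not given in the sources used here.

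Counts of 149132 transcripts were summed to 57180 genes by the deposited gene IDs and rounded. Groups come from the sample titles. edgeR 4.0.16 (R 4.3.3) was run with filterByExpr (minimum count 10, minimum total 15), TMM, a robust quasi-likelihood fit with group as the only term, and Benjamini-Hochberg adjustment over 14717 genes. The threshold was an adjusted p of 0.05, the common biological coefficient of variation 0.204, and the prior count of log2 CPM 2. The SE of a log2 fold change is its absolute value divided by the square root of the F statistic of the quasi-likelihood test. It is thus derived from the test and is not an estimate that edgeR itself gives. The difference of 1 HS heart is its log2 CPM minus the mean log2 CPM of the sham hearts. Lengths and transcript types are those of GENCODE vM21. DESeq2 1.42.0, limma-voom (limma 3.58.1), other scalings and filters, the most abundant transcript alone, a replicate block and leaving out hearts were alternatives. The fit was checked on simulated counts. Python 3.11.15 with scipy 1.17.1 gave the exact tests and intervals, and matplotlib 3.10.9 the plots.

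The 10 members and all gene lists were chosen with earlier results of these data known. Named were all members, the 3 genes of each pathway list with the smallest unadjusted p, the first 2 endothelial, atrial and ventricular markers, and the 5 genes most like Id1. Vwf, Egfl7, Cldn5, Bmp3, Bmpr1b, Bmp10, Hamp, Eng, Smad5 and Txndc5 are named outside this rule, after their values were seen. So are the markers Clu, Nppa, Myl4, Dkk3, Stard10, Col3a1, Acta2, Cspg4 and Kcnj8.

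Replicate numbers in the titles gave correlations of -0.06, 0.13 and 0.01 between same-numbered hearts, so they were not taken as pairs.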

Additional observations from a re-analysis of the deposited data

How the results depend on the processing

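The number of genes called was 9, and 352 with DESeq2, 129 with HS hearts 1 and 3 left out, 84 without a filter, 16 with column totals only and 4 with at least 10 counts in every heart. Leaving out single hearts gave 2 to 287 genes. Members called were 0, and 2 with DESeq2 (Id1 and Smad9), 1 with HS hearts 1 and 3 left out (Id1) and 0 to 1 without single hearts (Id1, without HS heart 3). These counts are no test of the members, which were chosen on this contrast, and with HS hearts 1 and 3 left out 1 HS heart remains and the spread comes from the 3 sham hearts alone. Pathway genes called were 0, and 0 to 3 without single hearts. The 3, without HS heart 2, are no result: Bmp3 and Bmpr1b failed the filter in the full data and pass it there only through the hearts where they are high, and Sost is also low in HS heart 2. With the replicate block 9 genes, 0 members and 0 pathway genes were called and the median of the members was 0.29. Of the 9 genes, 6 were shared with the fit without the block. The numbers did not pair the hearts. The median of the members ran from 0.06 to 0.50 without single hearts. Id1 kept its direction in 17 of 17 alternatives and Smad9 in 17 of 17, Bmp6 and Smad6 in 17 of 17 and Id4 in 16 of 16, but Bmp4 and Bmpr2 in 16, Smad7 in 15, Id3 in 14 and Id2 in 11. The alternatives refit the same hearts on which the members were chosen, so these tallies are no separate evidence. For Id1 and Smad9, whose groups did not overlap, leaving out hearts could hardly turn the direction. The main transcript share of Id1 differed by -4.36 to 7.31 percentage points without single hearts. For both main transcript shares, a minimum of 10 counts gave the values reported and a minimum of 50 left no gene. The cause of these differences was not tested. At under 50 counts a heart, as for Id4 and for Smad9 in sham hearts, depth limits the precision.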

Other observations

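Some pathway genes did not pass the filter on low counts and were seen in single HS hearts. Bmp10, an atrial BMP ligand, was at 81.5 CPM (1604 counts) in HS heart 3 and at 0 counts in the other 5 hearts, HS heart 1 among them. Bmp3 was at 5.59, 0 and 4.02 CPM in HS hearts, against 0.0797, 0.0420 and 0 CPM in sham hearts, and Bmpr1b, a type I BMP receptor, was at 0.830, 0.0395 and 1.07 CPM in HS hearts, against 0.0399, 0.168 and 0.0859 CPM in sham hearts. Both followed the atrial markers in that HS hearts 1 and 3 were high. Hamp, the hepcidin gene and a BMP target in liver, had 4, 1 and 60 counts in HS hearts, against 2, 0 and 0 counts in sham hearts. A cause for these differences was not tested.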
